A study of Mus musculus with 2 samples.

Results

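The cells described here were the 289 liver NKT cells that the authors placed outside their main NKT cluster. They were chosen as every cell with the authors' name NKT and a cluster number other than 0, and they made up 289 of 2678 NKT cells and of 11929 cells in all. They came from 2 clusters, numbered 19 and 20. Cluster 19 held 127 WT and 20 TG cells, cluster 20 held 119 WT and 23 TG cells, and cluster 0, to which both were compared within each genotype, held 1986 WT and 403 TG cells. WT were wild type C57BL/6 mice. TG were dnTGFβRII mice of the same strain, which carry a dominant negative human TGF-β receptor II under the control of the CD4 promoter, which is active mainly in T cells. The age label of both libraries was 10 weeks, while the study's methods state a slightly younger age. CD45+ cells of the liver were loaded into BD Rhapsody microwells, and the transcripts and antibody-linked oligonucleotides of each cell were counted as unique molecular identifiers (UMIs). The TG cells were captured in 1 library together with cells of IFN-γ ARE-Del-/- mice, and the WT cells in 1 other library together with cells of P40-/-IL-2Ra-/- mice. Only the cells that the authors assigned to TG or WT are described. With 1 library per genotype, genotype and library cannot be told apart, there is no replicate check, and no test was made.

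NKT cells are T cells with a semi-invariant αβ receptor that recognises lipids presented by CD1d, and they are abundant in mouse liver. Their development depends on the transcription factor PLZF, encoded by Zbtb16, and liver NKT cells are mostly of the NKT1 kind, which expresses T-bet, NK1.1 and CD122 and secretes IFN-γ on activation. Type I interferon acts through its receptor and a complex that contains IRF9, which binds the interferon-stimulated response element (ISRE) in promoters of antiviral genes. Signals through the T cell receptor raise immediate early factors of the NR4A and EGR families and NF-κB targets, and activated T cells enlarge their ribosome production before division.

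Levels are UMIs of a summed profile scaled to a total of 1000000 (CPM), with the exact 95% Poisson interval in parentheses where one is given. Differences are log2 ratios of CPM with a conditional binomial interval. Both intervals cover counting error only and not the differences between cells. The authors' clusters were derived from these transcripts, so a difference between clusters is a description and not a finding of a test. The 43 TG cells held 205726 UMIs and the 246 WT cells held 836959. The median number of UMIs per cell in clusters 0, 19 and 20 was 2838.5, 3502 and 2828 in WT and 3833, 5007.5 and 3719 in TG. Cells outside cluster 0 were 9.64% of NKT cells in TG (exact binomial 95% interval 7.07 to 12.8) and 11.02% in WT (9.75 to 12.4), a difference of -1.38 percentage points (-4.15 to 1.95) that counting error alone could give. Of all cells of a genotype they were 0.925% in TG and 3.38% in WT, a difference of -2.45 points (-2.95 to -1.95). NKT cells of cluster 0 were likewise a smaller share of all cells in TG, 8.67% against 27.3% in WT, so this difference was not particular to the minor clusters. Doublet calls marked 2 cells of WT cluster 19 and 0 of the other cells outside cluster 0. No cell number outside cluster 0 occurred in both libraries.

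The label NKT was first set against its defining markers, and Zbtb16 lay above its level in mature B cells, with intervals that did not overlap, in 3 of the 4 groups outside cluster 0. Zbtb16 was at 104 CPM (95.9 to 113) in WT cluster 0, 175 (140 to 217) in WT cluster 19 and 64.5 (40.9 to 96.8) in WT cluster 20. In TG it was at 42.3 CPM (32.7 to 53.8) in cluster 0 and 79.2 (36.2 to 150) in cluster 19, the latter from 9 UMIs in 5 cells. TG cluster 20 held 1 UMI of Zbtb16 in 23 cells, or 10.9 CPM (0.275 to 60.5), while mature B cells, which should lack the gene, had 4.45 CPM in WT and 1.19 in TG. The interval of TG cluster 20 holds both this background and the level of TG cluster 0, so Zbtb16 cannot place these cells, and the label is used for them only as the authors' name. In cells thinned to 1000 UMIs each, Zbtb16 was found in 8.71%, 14.2% and 6.72% of WT cells of clusters 0, 19 and 20, and in 3.72% and 10% of TG cells of clusters 0 and 19. In TG cluster 20 it was in 1 of 23 cells before thinning, and that UMI was not drawn in thinning. It was in 0.268% of WT and 0.187% of TG mature B cells, thinned alike.

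The T cell markers were present throughout. Cd3e, a chain of the T cell receptor complex, was at 1134, 856 and 1032 CPM in WT clusters 0, 19 and 20 and at 1410, 1205 and 1391 CPM in TG. Klrb1c, which encodes NK1.1, was lower outside cluster 0, at 826, 471 and 536 CPM in WT and 469, 255 and 163 CPM in TG. Il2rb, which encodes CD122, followed the same order in WT, at 2759, 1503 and 2047 CPM, and in TG was at 2317, 1698 and 1652 CPM. Tbx21, which encodes T-bet and defines NKT1 cells, was at 190, 156 and 191 CPM in WT and 183, 150 and 196 CPM in TG, with little difference between clusters. Il17a, Il17f, Il22 and Il23r, genes of NKT17 cells, had 0 UMIs outside cluster 0 in both genotypes in the unfiltered library counts. The Poisson upper bound of a count of 0 is 4.41 CPM in the WT cells outside cluster 0 and 17.9 CPM in the TG cells.

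**Figure D1:**
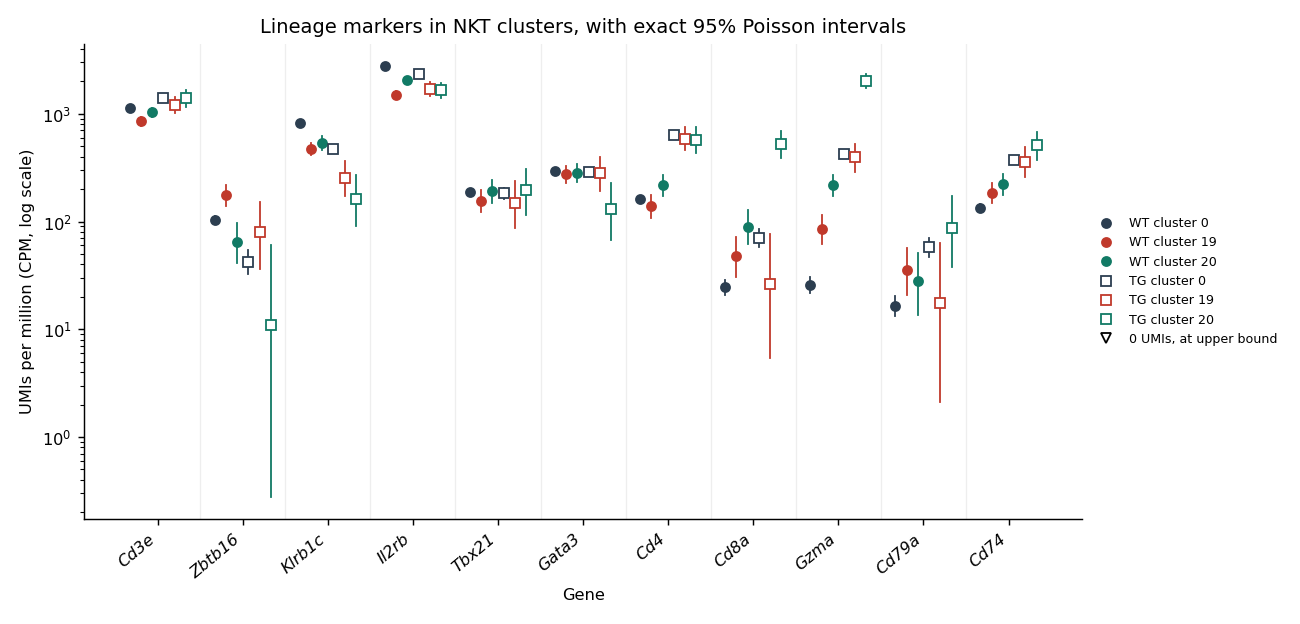
CPM (log axis) of 11 lineage genes in the 3 NKT clusters of WT (filled circles) and TG (open squares), with exact 95% Poisson intervals. Open triangles mark genes with 0 UMIs, drawn at the upper bound. Cd3e lay between 856 and 1410 CPM in the 6 profiles, whereas Zbtb16 rested on 1 UMI in TG cluster 20 and Cd8a was highest there.

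Transcripts of the CD8 coreceptor were found in some cells of each cluster. Cd8a, the α chain of the CD8 coreceptor, was at 522 CPM in TG cluster 20 (48 UMIs in 7 cells) against 69.9 in TG cluster 0, and at 89.7 against 24.5 CPM in WT. Cd8a or Cd8b1 was found in 8 of 23 TG cells of cluster 20, in 5 of 20 of TG cluster 19, and in 42 of 403 of TG cluster 0. Of these cells, 4, 4 and 26 also held a UMI of Cd4. In WT clusters 20, 19 and 0, Cd8a or Cd8b1 was found in 13 of 119, 18 of 127 and 186 of 1986 cells. Of these, 1, 5 and 55 held Cd4. Mature B cells, which should lack Cd8a and Cd8b1, held them in 84 of 1068 TG and 152 of 1494 WT cells. Their medians were 2923 and 2044.5 UMIs. The WT shares of cells were close to this background and that of TG cluster 20 was above it. A share does not give the level, and by level Cd8a was also higher in WT cluster 20 than in WT cluster 0. TG cluster 19 had deeper cells, with a median of 5007.5 UMIs, and its 5 of 20 cells could not be told from background by this share. Gzma, the cytotoxic protease granzyme A, was at 2032 CPM in TG cluster 20 and 421 in TG cluster 0, but 3 cells held 91.4% of its 187 UMIs. Gzmb, granzyme B, was at 1771 and 505 CPM, with 84.7% in 3 cells of cluster 20. Gata3, a factor of T helper and NKT2 cells, was lower in TG cluster 20 (130 CPM) than in TG cluster 0 (289 CPM), whereas in WT it was at 283 and 297 CPM. The main results of TG cluster 20 are therefore also given without cells with a Cd8a UMI.

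Together, clusters 19 and 20 held 190 genes at least 2-fold higher than cluster 0 in WT (2.52% of 7529) and 254 lower (3.37%), and 82 higher (2.22% of 3701) and 187 lower (5.05%) in TG. The interval of the log2 ratio excluded 0 for all of the higher genes, and for 216 of the lower genes in WT and 149 in TG. The clusters are described in turn.

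The transcripts that set cluster 20 apart were those of an interferon response, in both genotypes. Of 30 interferon-stimulated genes in the list, 24 passed the filter on low values in WT (at least 10 UMIs expected in each profile at the level pooled over both) and 21 of these were at least 2-fold higher in WT cluster 20 than in WT cluster 0, where 2.16% of the 5290 genes measured were. The 0 of 24 that were lower compare with 2.27% of all genes. Their median log2 ratio was 2.04, and that of all genes was -0.08. In TG, 10 of 14 passing genes were higher and 0 lower, where 2.35% and 3.84% of 1745 genes were, with a median of 1.67 beside -0.06 for all genes. Since the filter reads the pooled level, a gene scarce in cluster 0 could pass because it was high in cluster 20, so these counts and medians are partly set by the difference itself and only describe the genes that passed. The sum over all 30 genes, which uses no filter, was 13951 CPM in WT cluster 20 and 3361 in WT cluster 0, and 13474 CPM in TG cluster 20 and 4357 in TG cluster 0. The log2 ratio of sums in TG was 1.63 (1.54 to 1.72), and 1.27 (1.15 to 1.38) after cells with a Cd8a UMI were left out of both clusters. In WT it was 2.05, and 2.03 without such cells. The median share of a cell's UMIs on this list, in percent, was 1.55 in the TG cluster 20 cells with a UMI of Cd8a or Cd8b1 and 0.926 in the others, and in WT cluster 20 it was 1.67 and 1.04.

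The promoters of 4 genes higher in cluster 20 are shown because many genes higher in this cluster held the same letters there. They were taken from the highest named genes of WT cluster 20, and only where the printed stretch held a match. Each therefore holds the letters by choice. Each sequence runs 5′ to 3′ in the direction of the gene, from base -170 to base -31 before its start (RefSeq, build GRCm38.p6), and capitals mark the ISRE letters GAAANNGAAA on either strand.
Ifit3, chr19:34583359-34583498, plus strand: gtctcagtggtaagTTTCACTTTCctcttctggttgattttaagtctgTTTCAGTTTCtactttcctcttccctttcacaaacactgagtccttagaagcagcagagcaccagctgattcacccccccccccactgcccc
Ifit1, chr19:34640719-34640858, plus strand: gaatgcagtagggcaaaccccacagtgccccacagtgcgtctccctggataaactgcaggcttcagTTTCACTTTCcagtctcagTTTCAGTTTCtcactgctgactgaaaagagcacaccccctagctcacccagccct
Slfn5, chr11:82951932-82952071, plus strand: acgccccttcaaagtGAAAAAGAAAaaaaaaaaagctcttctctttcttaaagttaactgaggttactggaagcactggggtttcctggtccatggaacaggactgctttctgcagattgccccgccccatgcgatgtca
Isg15, chr4:156200849-156200988, minus strand: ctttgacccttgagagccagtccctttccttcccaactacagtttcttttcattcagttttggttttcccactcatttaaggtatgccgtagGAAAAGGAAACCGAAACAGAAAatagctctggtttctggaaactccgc

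The stretch held 2 matches in Ifit3 and in Ifit1, 3 overlapping ones in Isg15 and 1 in Slfn5. A gene can have several RefSeq promoter entries, and the first with a match in the stretch was printed. Another annotation begins Slfn5 at base 82951349, so its printed stretch lies inside the gene as given there. Among the 114 genes 2-fold or more higher in WT cluster 20, 94 had a promoter entry, and 41 of these (43.6%) held the ISRE letters between 250 bases before and 50 after the start, on either strand. Of the 4221 genes measured in the comparison with an entry the share was 4.48%, and of all 27025 genes with an entry it was 3.99%. Promoters on chromosome 18 were left out, so genes there, Iigp1 among them, count as without an entry. Among the genes higher in WT cluster 19 it was 4.63%. The matches are letters in a window and not measured binding.

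Ifit1 and Ifit3, which encode RNA-binding antiviral proteins, were nearly absent from NKT clusters 0 and 19. Ifit3 was at 8.15 CPM in WT cluster 0, 12.5 in WT cluster 19 and 499 in WT cluster 20, a log2 ratio of 5.94 over cluster 0. In TG it was at 16.7 CPM in cluster 0, 0 UMIs in cluster 19 and 456 CPM in cluster 20. Ifit1 was at 20.1, 25 and 855 CPM in WT clusters 0, 19 and 20, and at 21.8 CPM, 0 UMIs and 771 CPM in the TG clusters. Its UMIs were spread over 82 of 119 cells in WT cluster 20 and 16 of 23 in TG. Both genes lay below the filter in TG, where so few cells were summed, and so did Isg15.

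Isg15 encodes a ubiquitin-like modifier. It was at 54.8, 99.9 and 684 CPM in WT and 52.6, 17.6 and 511 CPM in TG, in the order of clusters 0, 19 and 20. Slfn5, a member of the Schlafen family, was at 60.7, 43.7 and 1015 CPM in WT and 84.6, 44 and 685 CPM in TG. The GTPase genes followed. Iigp1 was at 10.9 and 314 CPM in WT clusters 0 and 20 and 48.1 and 391 CPM in TG, and Gbp6 at 66.4 and 499 CPM in WT and 84 and 554 CPM in TG. Among the NKT clusters, each of these genes was highest in cluster 20 in both libraries, although Iigp1 rested on 8 cells in TG.

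The signalling genes of the pathway were also higher in cluster 20. Stat2 was at 58.8 and 331 CPM in WT clusters 0 and 20 and 66 and 239 CPM in TG. Irf9, the DNA-binding member of the complex, was at 111 and 317 CPM in WT and 148 and 326 CPM in TG. Irf7, which amplifies interferon production, was at 41.3 and 283 CPM in WT and 64.8 and 283 CPM in TG. Ifnar1, a receptor chain, differed little, at 52 CPM in WT cluster 0, 56.1 in WT cluster 20, 59 in TG cluster 0 and 65.2 in TG cluster 20. In a second list, of interferon signalling genes and other targets, written after the data were seen, 23 of 29 passing genes were 2-fold higher in WT and 11 of 14 in TG, beside 2.16% and 2.35% of all genes. None was lower, beside 2.27% and 3.84%. Cxcl10, a chemokine for CXCR3-bearing cells, was at 423 CPM in WT cluster 20 and 4.51 in WT cluster 0, but 3 cells held 69.5% of its UMIs.

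**Figure D2:**
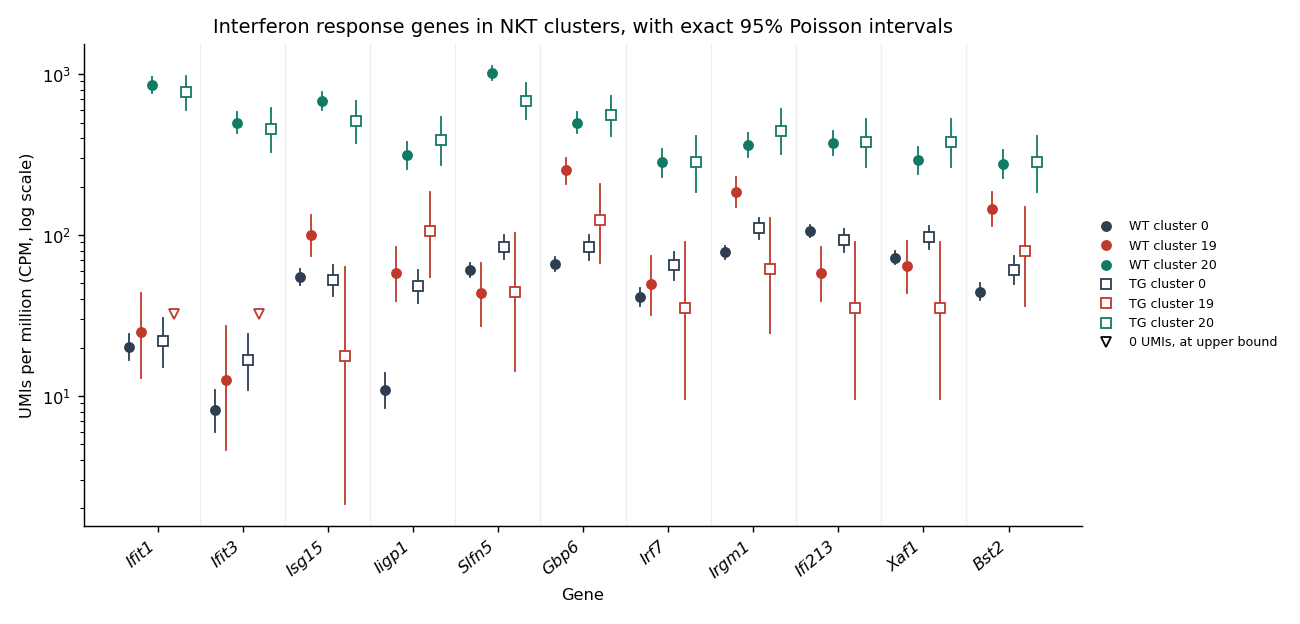
CPM (log axis) of 11 interferon response genes in the 3 NKT clusters of WT (filled circles) and TG (open squares), with exact 95% Poisson intervals, and open triangles at the upper bound for 0 UMIs. Cluster 20 lay above clusters 0 and 19 for all 11 genes in both genotypes, for Ifit1 at 855 CPM in WT and 771 in TG.

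Interferon transcripts were spread over the cells of cluster 20. The share of a cell's UMIs that fell on the interferon-stimulated list had a median of 1.08% in WT cluster 20, from 0.20% to 4.70%, and of 1.08% in TG cluster 20, from 0.72% to 4.09%. In cluster 0 the medians were 0.31% in WT, with a highest cell of 1.28%, and 0.42% in TG, with a highest cell of 1.18%. The ranges overlapped in both genotypes. Among 50 profiles of a cluster and a genotype with at least 20 cells, WT and TG cluster 20 ranked 1 and 2 in the summed level of the list, and the next was a TG monocyte cluster at 8541 CPM.

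Of all genes measured in cluster 20, 2.16% were higher and 2.27% lower in WT, and 2.35% and 3.84% in TG, and the counts of the next lists were near these shares. Of 22 genes of T cell receptor signalling and the immediate early response, 0 were 2-fold higher and 1, Myc, was lower in WT, and 0 of 16 differed by 2-fold in TG. Of the ribosome biogenesis genes, 0 of 21 were higher in WT and 1, Pes1, was lower. Plac8, a small cysteine-rich protein found in NKT2 cells, was higher in both genotypes, at 715 against 339 CPM in WT and 1174 against 582 CPM in TG. Gata3, of the same NKT2 list, was not higher in either genotype, as given above, so Plac8 does not stand for the list. Ikzf2, which encodes Helios, was higher in WT cluster 20 with a log2 ratio of 1.28 (0.85 to 1.68). The lists of other cell types differed from cluster 0 too. The CD8 T cell list summed to 185 CPM in WT cluster 20 and 42 in cluster 0, and to 674 and 99.4 CPM in TG. The NK cell list summed to 763 and 474 CPM in WT and to 3173 and 968 CPM in TG. It includes Gzma, whose UMIs in TG cluster 20 lay mostly in 3 cells, as given above. The B cell list was at 813 and 577 CPM in WT and at 1771 and 2352 CPM in TG. Their part in the result was not tested. After cells with a Cd8a UMI were left out, 19 of 1146 genes were higher in TG cluster 20, in place of 41 of 1745.

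Cluster 19 differed from cluster 0 in genes of ribosome production and protein folding in both genotypes. The lists of ribosome biogenesis, of NF-κB and of polyamine, one-carbon and serine synthesis were written after the data were seen, so their counts describe these cells and support nothing further, and the filter on the pooled level bears on them as it does in cluster 20. In WT, 21 of 27 ribosome biogenesis genes were at least 2-fold higher and 0 lower, where 4.0% and 8.75% of 6181 genes were. Their median log2 ratio was 1.32, beside -0.12 for all genes. In TG, 8 of 10 were higher and 0 lower, where 4.28% and 13.5% of 2127 genes were, with medians of 1.54 and -0.18. The list summed to 8947 CPM in WT cluster 19 and 3789 in WT cluster 0, and to 9262 and 3262 CPM in TG. TG and WT cluster 19 ranked 1 and 2 of the same 50 profiles, and the next was another WT cluster at 5222 CPM. The log2 ratio of sums of the list over cluster 0 was 1.51 in TG and 1.24 in WT. Without cells with a Cd8a UMI it was 1.55 and 1.23.

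Npm1, the nucleolar protein nucleophosmin, was at 1161, 2517 and 1099 CPM in WT clusters 0, 19 and 20 and at 815, 2524 and 619 CPM in TG. Dkc1, which encodes the pseudouridine synthase dyskerin, was at 111, 277 and 78.5 CPM in WT and 91.7, 413 and 109 CPM in TG. Hspd1, the mitochondrial chaperonin, was at 145 and 566 CPM in WT clusters 0 and 19 and 135 and 554 CPM in TG. It is one of the heat shock list, of which 6 of 10 were higher in WT and 6 of 9 in TG, with none lower. Of all genes, 4.0% were higher and 8.75% lower in WT, and 4.28% and 13.5% in TG. Odc1, the first enzyme of polyamine synthesis, was at 115 and 464 CPM in WT and 116.7 and 361 CPM in TG. Srm, spermidine synthase, was at 20.3 and 123 CPM in WT and 19.2 and 158 CPM in TG, and 10 of the 20 TG cells held it. Of the genes of polyamine, one-carbon and serine synthesis, 7 of 10 were higher in WT, Psat1 and Phgdh among them, beside 4.0% of all genes. In TG only Odc1 passed the filter, and it was more than 2-fold higher. Of the glycolysis list, 3 of 14 genes were higher and 0 lower in WT, beside 4.0% and 8.75% of all genes. In TG 3 of 10 were higher and 2, Hk1 and Slc2a3, were lower, beside 4.28% and 13.5%. Hk1, a hexokinase, stood at 101.3 CPM in TG cluster 0 and 17.6 CPM, from 2 UMIs, in TG cluster 19, and Slc2a3, a glucose transporter, at 118.6 and 44.0 CPM, the latter from 5 UMIs. Ldha, lactate dehydrogenase, was at 577 against 252 CPM in WT and 616 against 296 CPM in TG, and Pgk1, a glycolytic kinase, at 379 against 185 CPM and 510 against 170 CPM. Mki67, a marker of dividing cells, had 0 UMIs in WT cluster 19 and 2 in TG cluster 19.

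The share of a cell's UMIs on the ribosome biogenesis list had a median of 0.76% in WT cluster 19, from 0.12% to 2.29%, and of 0.75% in TG cluster 19, from 0.34% to 1.98%. It was 0.35% in WT cluster 0 and 0.31% in TG cluster 0.

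One promoter is shown for cluster 19, because the letters CACGTG, the E-box bound by MYC and related factors, were in 41 of 216 promoters (18.98%) of the genes 2-fold higher in WT cluster 19. The share was 12.7% of the genes measured and 8.09% of all genes with a promoter entry. Ppa1, an inorganic pyrophosphatase, was at 22, 144 and 143 CPM in WT clusters 0, 19 and 20 and at 13.5, 114 and 32.6 CPM in TG, so in WT it was higher in both minor clusters. Among the highest named genes of WT cluster 19, only Ppa1 had a promoter entry with the letters in the printed stretch, and it was chosen for them. The stretch runs from base -170 to base -31 as above, with the E-box in capitals. Another annotation begins Ppa1 at base 61648552, within the printed stretch and after the E-box.
Ppa1, chr10:61648451-61648590, plus strand: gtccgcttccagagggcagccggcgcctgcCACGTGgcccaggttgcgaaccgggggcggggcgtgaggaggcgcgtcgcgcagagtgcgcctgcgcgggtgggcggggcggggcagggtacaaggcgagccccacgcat

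A κB site (GGGANTTTCC, either strand) was in 1 of the 216 promoters (0.463%) and in 0.405% of those of the genes measured.

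**Figure D3:**
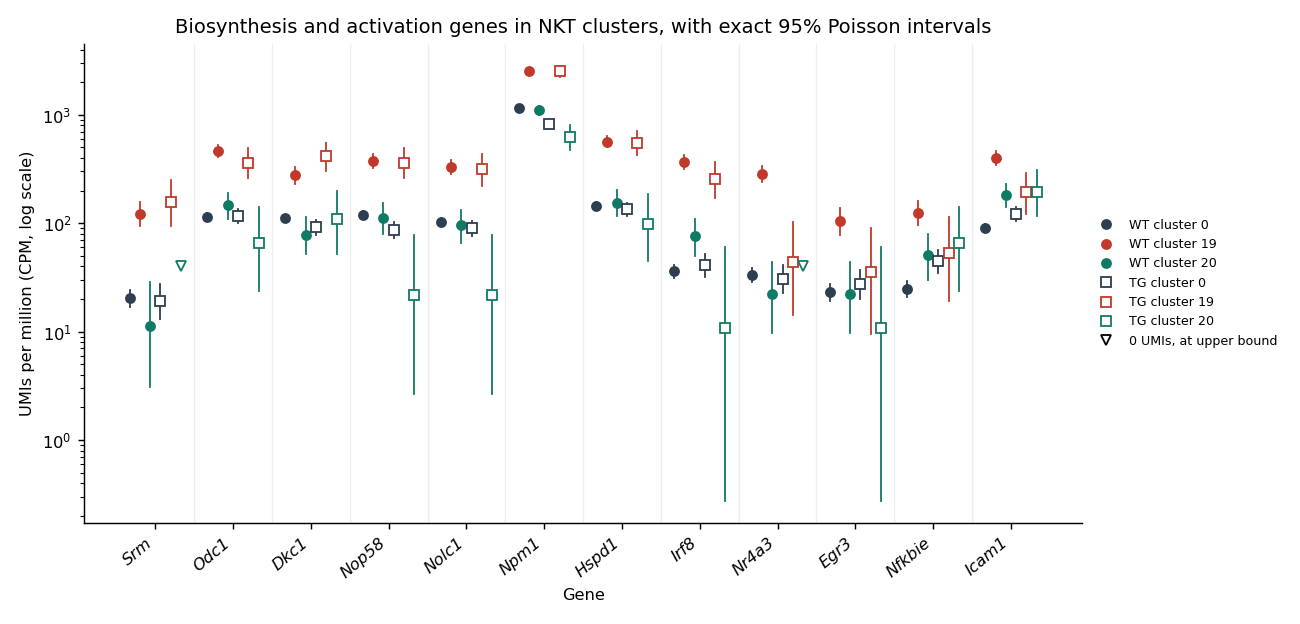
CPM (log axis) of 12 biosynthesis and activation genes in the 3 NKT clusters of WT (filled circles) and TG (open squares), with exact 95% Poisson intervals, and open triangles at the upper bound for 0 UMIs. The 7 biosynthesis genes from Srm to Hspd1 were higher in cluster 19 than in cluster 0 in both genotypes, while Nr4a3 was at 287 CPM in WT cluster 19 and 44 in TG cluster 19.

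Some activation genes were higher in WT cluster 19, among them 7 of 15 genes of the NF-κB list, beside 4.0% of all genes. Irf8, a transcription factor of myeloid and activated T cells, was at 35.9 CPM in WT cluster 0 and 371 in WT cluster 19, a log2 ratio of 3.37 (3.07 to 3.66), and at 41 and 255 CPM in TG. Nr4a3, an orphan nuclear receptor, was at 33.5 and 287 CPM in WT and 30.8 and 44 CPM in TG, the latter from 5 UMIs. Egr3 was at 23.1 and 104 CPM in WT and 27.6 and 35.2 CPM in TG. Nfkbie, an inhibitor of NF-κB, was at 24.6 and 125 CPM in WT and 44.9 and 52.8 CPM in TG. In TG the intervals of the log2 ratios of Nr4a3, Egr3 and Nfkbie reached from below 0 to above 1, so a 2-fold difference between the TG clusters could be neither shown nor dismissed for these genes alone. Icam1, an adhesion molecule, was at 90.2 and 400 CPM in WT and 122 and 194 CPM in TG. The 7 genes of the NF-κB list 2-fold higher in WT were Nfkb1, Rel, Relb, Nfkbib, Nfkbid, Nfkbie and Icam1. None was lower in WT, beside 8.75% of all genes. In TG only 9 genes of the list passed the filter, so the counts of the genotypes are over unequal sets, and 0 of them were 2-fold higher or lower, beside 4.28% and 13.5% of all genes, with a median log2 ratio of 0.20. The list summed to 4458 CPM in WT cluster 19 and 2520 in WT cluster 0, and to 2560 and 2044 CPM in TG, higher in cluster 19 in both. Tnfrsf9, the costimulatory receptor CD137, was at 8.32 and 171 CPM in WT clusters 0 and 19 and 21.2 and 176 CPM in TG.

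The wider T cell receptor and immediate early list gave values in both directions. In WT cluster 19, 4 of 23 of its genes were higher (Nr4a3, Egr3, Nfkbid and Rel) and 1, Jun, was lower, with a median log2 ratio of -0.14 and a log2 ratio of sums of -0.29 (-0.33 to -0.26). The shares over all genes were 4.0% higher and 8.75% lower. In TG, 0 of 18 were higher and 2, Jun and Cd69, were lower, where 4.28% and 13.5% of all genes were. Irf4 in both genotypes and Myc in TG, also of this list, did not pass the filter and are not in these counts. Their levels, given under the other observations, were higher in cluster 19 than in cluster 0. Jun, a subunit of AP-1, was at 2048 and 900 CPM in WT clusters 0 and 19 and 1774 and 730 CPM in TG. Fos, its partner, was at 1008 and 568 CPM in WT and 787 and 581 CPM in TG. Jun and Fos were thus lower in the cluster in which Nr4a3, in WT, was higher.

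Some receptors shared with NK cells were lower in cluster 19. In WT, 6 of 13 genes of the list were 2-fold lower and 0 higher, beside the 8.75% of all genes that were lower, and in TG 2 of 7 were lower, beside 13.5%. Klrd1, which encodes CD94, was at 386 CPM in WT cluster 0 and 104 in WT cluster 19. Klrk1, which encodes the activating receptor NKG2D, was at 310 and 127 CPM in WT and 191 and 44 CPM in TG. Klrc1, the partner of CD94, was at 220 and 70.8 CPM in WT and at 123 CPM and 0 UMIs in TG. Itga1, the integrin CD49a of tissue-resident lymphocytes, was at 115 and 37.5 CPM in WT and 217 and 35.2 CPM in TG. Prdm1 and Zfp683, which encode the residency factors Blimp-1 and Hobit, were 2-fold lower in WT cluster 19 as well, with log2 ratios of -1.57 (-2.80 to -0.58) and -1.41 (-2.88 to -0.27). Itga1, Prdm1 and Zfp683 are members of the tissue retention list. Xcl1, a chemokine of NK and NKT cells and of the same list, was higher, at 839 against 352 CPM in WT and 431 against 254 CPM in TG. Icam1, also of that list, was higher too, as given above, so the list held genes of both directions. Of the interferon-stimulated list, 6 of 23 were higher and 2 lower in WT cluster 19, beside 4.0% and 8.75% of all genes. In TG cluster 19, 1 of 15 was higher and 5 lower, beside 4.28% and 13.5%. The B cell list summed to 764 CPM in WT cluster 19 and 577 in cluster 0, and to 1398 and 2352 CPM in TG, while the platelet list was at 50 and 7.46 CPM in WT and 44 and 8.98 CPM in TG. Their part in the result was not tested.

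**Figure D4:**
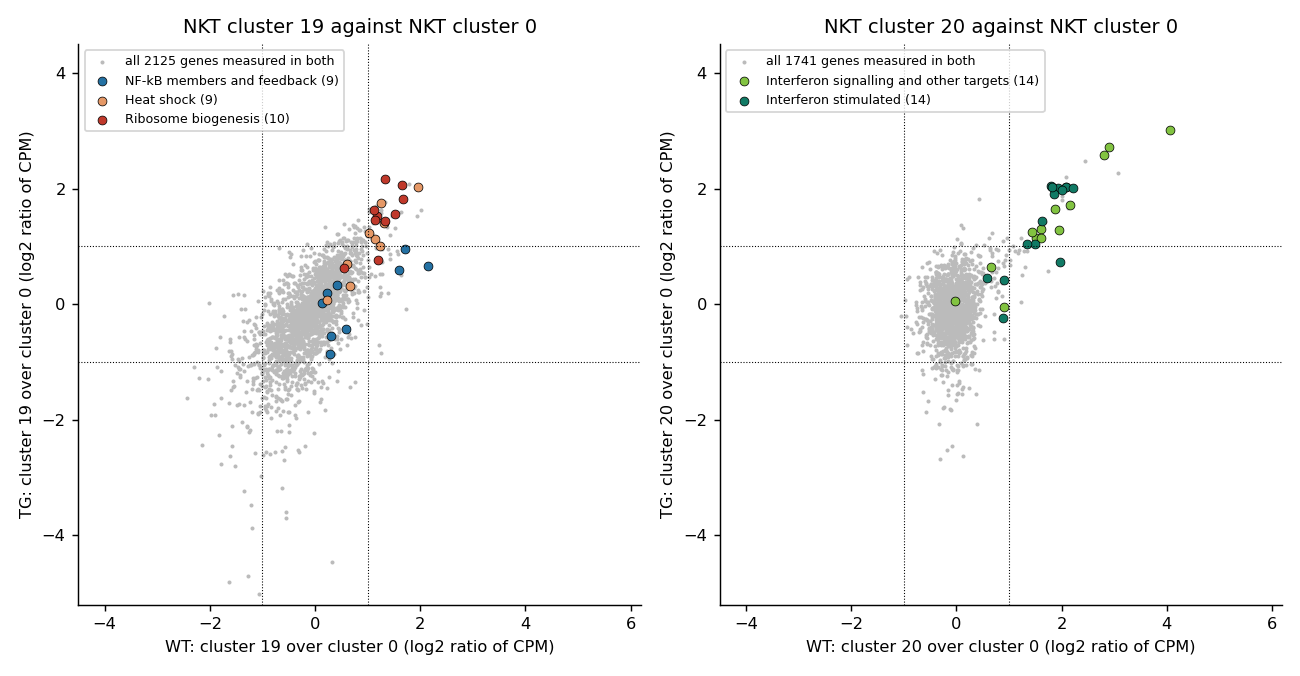
Each point is a gene that passed the filter in both genotypes, with its log2 ratio of CPM over cluster 0 in WT on the x axis and in TG on the y axis, for cluster 19 (left, 2125 genes) and cluster 20 (right, 1741 genes). Dotted lines mark 2-fold, and colours mark the gene lists. Genes of the ribosome biogenesis list (left) and of both interferon lists (right) lay mostly in the upper right, while the NF-κB genes lay mostly to the right of 0, with a median of 0.20 in TG.

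The same comparisons in the 2 libraries were set side by side for the genes measured in both. The authors clustered the cells of both libraries together after canonical correlation, so the same genes could place cells in a cluster in both. Sharing may therefore be partly set by the clustering and by the filter on the pooled level, and the counts only describe it. The median log2 ratio of all genes measured was -0.18 in TG cluster 19 and -0.06 in TG cluster 20. Of 2125 genes measured in cluster 19 in both, 65 were 2-fold higher in WT and 91 in TG, and 37 were higher in both (56.9% of the WT genes and 40.7% of the TG genes). Of the 65, 62 lay above 0 in TG. Of 1741 genes measured in cluster 20 in both, 42 were higher in WT and 41 in TG, and 29 in both (69.0% and 70.7%). All 42 lay above 0 in TG. Of the lower genes in cluster 19, 135 were 2-fold lower in WT and 287 in TG, and 79 in both (58.5% and 27.5%), and 130 of the 135 lay below 0 in TG. In cluster 20, 1 was lower in WT and 66 in TG, and 0 in both.

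The antibodies gave a second readout of the same cells, as the share of a profile's antibody counts. CD3 and NK1.1 were among the proteins that the authors used to name NKT cells, and whether antibodies entered the clustering is not given in the sources used here. CD25, the α chain of the IL-2 receptor encoded by Il2ra, was higher in cluster 19, at 0.508% against 0.303% of antibody counts in WT (log2 ratio 0.75, 0.64 to 0.85) and 0.432% against 0.204% in TG (1.08, 0.83 to 1.33). Il2ra itself was at 302 against 136 CPM in WT and 317 against 98.1 CPM in TG. In cluster 20 CD25 was at 0.310% in WT and 0.165% in TG, with intervals of the log2 ratio that included 0. CD69, an activation antigen, was at 0.629% against 0.486% in WT cluster 19 and 0.392% against 0.280% in TG cluster 19, although Cd69 transcripts were lower in TG. CD71, the transferrin receptor of growing cells, had a log2 ratio of 0.61 (0.32 to 0.88) in WT cluster 19 and 0.79 (0.10 to 1.41) in TG. The surface proteins and their transcripts differed in the same direction for CD25 in both libraries.

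CD122 and CD49a were lower at the surface of cluster 19, as Il2rb and Itga1 were among transcripts. CD122 was at 0.363% against 0.574% in WT and 0.276% against 0.363% in TG, and CD49a at 2.45% against 3.63% in WT and 4.64% against 5.43% in TG. NK1.1 was lower in cluster 20, at 0.781% against 1.05% in WT and 1.09% against 1.42% in TG, as Klrb1c was. CD8b was at 0.317% in TG cluster 20 and 0.204% in TG cluster 0, a log2 ratio of 0.63 (0.35 to 0.91), and also at 0.395% in TG cluster 19. CD49d, the integrin α4 chain, was at 1.94% in WT cluster 20 and 0.957% in WT cluster 0, but the median of the authors' normalised value differed by only 0.01 between the cells of both clusters. In TG it was at 3.06% and 2.32%, and the medians differed by 0.25. TER-119 and CD24, found on erythroid cells, had log2 ratios of 1.31 and 0.81 in WT cluster 19, while the medians over cells differed by -0.02 and -0.06. CD44, carried by all NKT cells, was at 14.1% to 15.9% of counts in all 6 profiles.

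**Figure D5:**
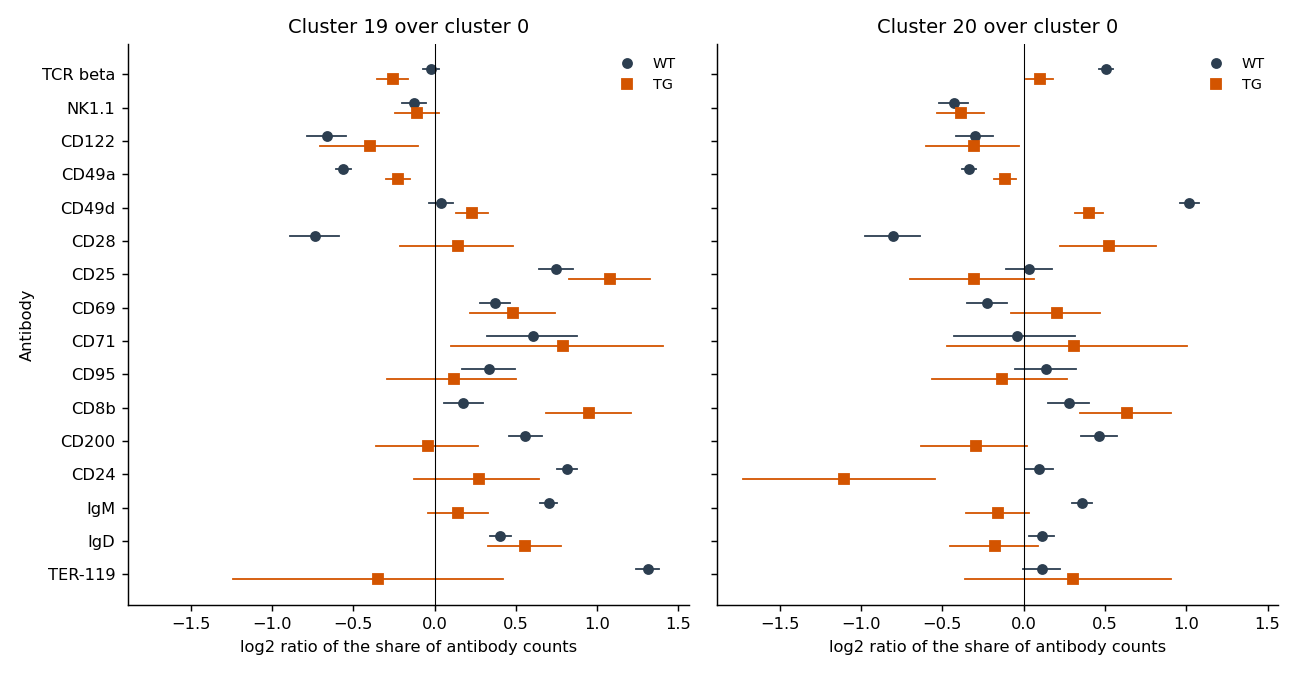
Log2 ratio of the share of antibody counts in cluster 19 (left) and cluster 20 (right) over cluster 0 for 16 antibodies, in WT (circles) and TG (squares), with 95% conditional binomial intervals. CD25 lay at 0.75 in WT and 1.08 in TG in cluster 19, and CD122 lay below 0 in both clusters and both genotypes.

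TG and WT cells outside cluster 0 were last compared with each other, to describe how the genotypes differed within the minor clusters. Of 3617 genes, 61 (1.69%) were 2-fold or more higher in TG and 131 (3.62%) were lower. Cd4, the coreceptor of helper T cells, was at 583 CPM in TG and 173 in WT (log2 ratio 1.75). Itga4, which encodes CD49d, was at 360 and 122 CPM. Tgfbr2, the gene of the receptor whose dominant negative form the transgene encodes, had a log2 ratio of 1.54, and human and mouse transcripts were not told apart in this table. In cluster 0 the same genes had log2 ratios of 2.00, 1.69 and 1.47, so the libraries differed in them within cluster 0 as well. Zbtb16 and Klrb1c were lower in TG, by -1.40 (-2.50 to -0.46) and -1.22 (-1.70 to -0.77) outside cluster 0 and by -1.30 (-1.69 to -0.93) and -0.82 (-0.93 to -0.70) within it.

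The gene groups that marked the minor clusters were then set side by side. Of the interferon-stimulated list, 0 of 29 genes were higher and 2 lower in TG than in WT outside cluster 0, and of the ribosome biogenesis list 0 of 25 were higher and 1 lower, beside 1.69% and 3.62% of all genes. The log2 ratio of TG over WT of the summed interferon list was -0.05 (-0.14 to 0.04) in cluster 20, with cells with a Cd8a UMI included. Over cluster 0, the log2 ratio of sums in cluster 20 was 1.63 in TG and 2.05 in WT with those cells. Without them it was 1.27 and 2.03, and TG over WT without them is not given here. The log2 ratio of TG over WT of the summed ribosome biogenesis list was 0.05 (-0.05 to 0.15) in cluster 19. The summed NF-κB list had a log2 ratio of TG over WT of -0.80 (-0.98 to -0.62) in cluster 19 and -0.30 (-0.36 to -0.25) in cluster 0. This list was written after the data were seen, so its direction is a description only. Of all 2045 genes compared between the genotypes in cluster 19, 1.56% were 2-fold higher in TG and 5.48% lower. Nr4a3 was lower in TG in cluster 19, with a log2 ratio of -2.71 (-4.35 to -1.45), and differed little in cluster 0, with -0.12 (-0.61 to 0.34). Emb, which encodes the adhesion protein embigin, was at 14.6 CPM in TG and 131 in WT outside cluster 0, from 3 TG UMIs, with a log2 ratio of -3.17. Immunoglobulin transcripts were higher in TG, Igha by 3.02 outside cluster 0 and by 3.66 in cluster 0, and the B cell list summed to 1565 CPM in TG and 785 in WT outside cluster 0. Their part in the result was not tested. Each of these differences is between 2 libraries.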

How the data were processed

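Hepatic CD45+ cells of TG and WT mice were profiled for transcripts and 49 surface antibodies on BD Rhapsody. The authors aligned reads to mm10 with STAR in the BD pipeline and deposited UMI counts of genes and antibodies for 11929 filtered cells and 13528 genes. Among these genes, 630 are at 0 in TG and 365 in WT. Il13 and Alb, at 0 in TG there, have UMIs in the library counts of TG cells, so a 0 may not be an absence, and 7 genes were also read from the deposited library counts. For the antibodies the authors also deposited a normalised value per cell, a centred ratio on a natural log scale. The mitochondrial share was deposited as a percent. Cell type names, genotypes and clusters (resolution 1.2, after canonical correlation in Seurat) are the authors' own, and the filter on cells is not given in the sources used here.

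UMI counts were summed per genotype and cluster and scaled to CPM. Genes with at least 10 expected UMIs in each profile at their pooled level were compared, at 2-fold, with a pseudocount of 0.5 UMI only where a count was 0. A gene nearly absent from cluster 0 can miss this filter in a small profile. Intervals (95%) were exact Poisson, Clopper-Pearson or conditional binomial. Doublets were called per library with Scrublet (scanpy 1.11.5, expected rate 5%) and kept, and left out as an alternative. TMM factors came from edgeR 4.0.16. Other calculations used Python 3.11.15, numpy 2.4.6, scipy 1.17.1 and pandas 2.3.3, and were tested on simulated data. Motifs were searched in RefSeq promoters on both strands, with those on chromosome 18 left out. Alternatives were TMM scaling, totals that leave out ribosomal and mitochondrial genes, equal weight per cell, thinning to 1000 UMIs, no filter, and leaving out doublets, cells with at least 2 B lineage UMIs or, added after the data were seen, cells with a Cd8a UMI. Profiles of TG clusters 19 and 20, each under 50 cells, were likewise added, as were 4 of the gene lists. A further alternative, planned at the start, counted only genes whose interval excluded 0.

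The cells and lists were chosen with earlier results of these data known. Genes named in the text are members of the lists, or the 10 highest or 10 lowest log2 ratios of a comparison with at least 10 UMIs in at least 5 cells, under 50% of UMIs in 3 cells, and 1 direction under every scaling. Some items that the rule named are not reported here.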

Additional observations from a re-analysis of the deposited data

Results flagged for a closer look

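Genes whose difference from cluster 0 had opposite directions in the 2 genotypes, with both intervals on their own side of 0, were picked out. The differences between genotypes were not tested. In cluster 19, Cd44, the hyaluronan receptor, had a log2 ratio over cluster 0 of 0.43 (0.25 to 0.61) in WT and -1.16 (-1.83 to -0.57) in TG, although the CD44 antibody differed by under 0.05 in both. Gzmb, granzyme B, had -0.69 in WT and 0.98 in TG cluster 19, where 3 of 20 cells held 77% of its UMIs. Igkc, an immunoglobulin light chain, had 0.42 in WT and -1.33 in TG, and 3 cells of TG cluster 0 held 50.4% of its UMIs there. In cluster 20, Maf, a transcription factor of IL-4 and IL-10 producing T cells, had 0.36 (0.11 to 0.61) in WT and -0.77 (-1.28 to -0.29) in TG.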

How the results depend on the processing

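No paired analysis was possible because each genotype had 1 library, and for the same reason no replicate could be left out. Of 196 recomputed summary values, 154 were labelled as the same, 40 as moved and 2 as reversed. The label allows a change of size. Zbtb16 in WT outside over within cluster 0, at 0.30 and at 0.14 with equal weight per cell, counts as the same. Of 1540 values of named genes, 1486 were labelled as the same, 54 as moved and 0 as reversed, which does not mean that the 1486 were unchanged. Thinned to 1000 UMIs per cell, which left fewer genes past the filter, the genes 2-fold higher and lower were 94 and 146 for WT outside cluster 0 over cluster 0, 15 and 31 for TG, 14 and 35 for TG over WT outside cluster 0, 83 and 238 for WT cluster 19, 51 and 58 for WT cluster 20, 11 and 28 for TG cluster 19, and 10 and 11 for TG cluster 20. With no filter on low values they were 1364 and 1135, 1872 and 1465, 1723 and 1291, 1835 and 1657, 1992 and 1059, 2587 and 2072, and 2731 and 1624, in the same order. Counting only genes whose interval excluded 0 left every count of higher genes unchanged. The counts of lower genes became 216, 149, 107, 501, 84, 250 and 56, in the same order, in place of 254, 187, 131, 541, 120, 287 and 67. The main counts were 190 and 254 of 7529 genes for WT outside cluster 0 (42.8% of them higher, and 55.4% with TMM scaling) and 82 and 187 of 3701 for TG. Without cells with a Cd8a UMI, TG cluster 20 had 19 genes higher, and its interferon-stimulated list a log2 ratio of sums of 1.27 in place of 1.63. Zbtb16 in TG outside over within cluster 0 was 0.20, and -0.58 with equal weight per cell and -0.19 without cells with B lineage UMIs. The cause was not tested, and the main value rested on 10 UMIs in 6 cells. The interferon-stimulated list in WT cluster 20 was 2.05, and 2.11 with TMM scaling. The ribosome biogenesis list in WT cluster 19 was 1.24, and 1.33 with TMM scaling, 1.15 with equal weight per cell and 1.14 thinned. The T cell receptor and immediate early list was -0.29 in WT cluster 19, and -0.20 with TMM scaling, -0.17 with equal weight per cell and -0.15 thinned, and in TG cluster 19 it was -0.19 and -0.042 thinned. As a mean share per cell, CD25 in TG cluster 19 was 1.39 in place of 1.08 and CD49d in WT cluster 20 was 0.76 in place of 1.02.

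The depth of the TG clusters, with 20 and 23 cells, limits what is shown for them. Counting intervals do not cover the uneven spread of UMIs over cells. Ifit1, Ifit3 and Isg15 did not pass the filter in TG cluster 20, and only the alternative with no filter counts them.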

Other observations

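Cytokine genes in the minor clusters gave few further values. Ifng, the cytokine that NKT1 cells secrete, was at 332 CPM in WT cluster 0, 631 in WT cluster 19 and 336 in WT cluster 20, and 3 cells held 68.0% of the UMIs of WT cluster 19. Il13, a type 2 cytokine, had 4 UMIs in WT cluster 19 in the library counts and 0 in the other groups outside cluster 0. Irf4, a factor that scales with the strength of T cell receptor signals, was at 7.8 and 62.5 CPM in WT clusters 0 and 19 and at 14.7 and 132 CPM in TG, where 3 cells held 80% of its 15 UMIs. Bach2, a repressor of effector differentiation, was at 45.6 and 108 CPM in WT clusters 0 and 19. The gamma delta T cell list summed to 935, 450 and 883 CPM in WT clusters 0, 19 and 20 and to 775, 598 and 326 CPM in TG. Myc was at 65.4, 102 and 30.8 CPM in WT clusters 0, 19 and 20 and at 46.8, 132 and 10.9 CPM in TG.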
